A study of Mus musculus with 2 samples.

Results

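The cells described here were sorted epithelial cells of the mouse anorectal region that held RNA of the lipid genes Plin2 and Scd1. They did not enter the study's own count tables. They were the barcodes of the 2 deposited single-cell matrices with more than 200 and fewer than 5000 detected genes and under 25% of their unique molecular identifiers (UMIs, one per captured RNA molecule) from mitochondrial genes, that were absent from the deposited table of the same library, that held at least 5 UMIs summed over Plin2 and Scd1, and that held fewer than 5 UMIs summed over the 5 fibroblast genes Col1a1, Col1a2, Col3a1, Dcn and Pdgfra. There were 710 such cells among 6773 that passed the filters on genes and mitochondrial UMIs. The working name for them was anal gland cells. Because part of them lacked the other markers of that name, they are called Plin2/Scd1 cells below.

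Both libraries came from K17CreERT2;R26RGFP mice on the C57/BL6J background, in which tamoxifen switches on a ZsGreen1 reporter from the Rosa26 locus in cells with an active Krt17 promoter. Normal tissue was compared with tissue collected 1 week after a wound made with hot EDTA and a brush. Each condition was 1 library made from the pooled anorectal regions of several mice of both sexes, and living EpCam-positive cells were sorted after gating out CD45, CD11b, CD31 and PDGFRa and after doublet discrimination by light scatter. No doublet caller was applied on top of that gate. Per the paper, the mice of both pools were given tamoxifen, the wounded ones before the wound and so longer before collection. With 1 library per condition no difference between conditions was tested. The wound cannot be told apart from the pool of mice, the run or the time since tamoxifen. The intervals below are 95% intervals that cover counting error only.

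Anal glands of the mouse are modified sebaceous glands. Their sebocytes arise from a basal layer, fill with lipid droplets as they move inwards, and end by disintegrating to release their contents, a mode of secretion called holocrine. Plin2 coats lipid droplets and Scd1 puts the double bond into fatty acids. Cidea helps droplets to fuse, Elovl3 lengthens fatty acids, and Far2 reduces them to the fatty alcohols from which wax esters are made.

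The normal library held 2564 barcodes and 17617944 UMIs, and 1548 barcodes passed the filters. Of these, 610 were absent from the deposited table of 939 cells, and 270 were Plin2/Scd1 cells, 17.4% of the filtered cells (15.6 to 19.4%, Clopper-Pearson) and 44.3% of those left out. The wounded library held 17216 barcodes and 88260050 UMIs, and 5225 passed. Here 1078 were absent from the table of 4147 cells, and 440 were Plin2/Scd1 cells, 8.42% of the filtered cells (7.68 to 9.21%) and 40.8% of those left out. The share was lower in the wounded library, which came from a separate pool and sort with more recovered barcodes. The libraries had 1 barcode in common and no barcode of a Plin2/Scd1 cell in common.

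Plin2/Scd1 cells were deeper than the cells around them. Their median was 13528 UMIs in the normal library and 15029 in the wounded one, against 9724 and 10077 in the deposited tables and 6400 and 7315 among the other cells left out. A threshold in UMIs favours deep cells, so a shallow cell with the same content could miss it. The median share of mitochondrial UMIs was 4.24% in normal and 9.31% in wounded Plin2/Scd1 cells.

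The UMIs of Plin2 and Scd1 chose the cells and are given as a description. Per cell they ran from 5 to 562 in the normal library, with a median of 20, and from 5 to 439 in the wounded library, with a median of 38. Just inside the threshold, at 5 and 6 UMIs, the 19 normal cells held Cidea, Elovl3 and Far2 at a summed 118 CPM (counts per 1000000 UMIs), and the 11 wounded cells held 123 CPM. Just outside it, at 3 and 4 UMIs, the 35 normal cells held 57.7 CPM and the 28 wounded cells held 16.7 CPM.

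The 3 markers that the rule did not use were seen in nearly all wounded cells and in fewer of the normal ones. At least 1 UMI of Cidea, Elovl3 or Far2 was present in 425 of 440 wounded cells and in 160 of 270 normal cells, so that 110 normal cells carried none. Deposited cells named Rectum, a simple epithelium outside this lineage, served as the measure of free RNA. With each cell thinned to 2000 UMIs, Cidea was seen in 18.5% of 265 normal Plin2/Scd1 cells (14.0 to 23.7%) and in 1.67% of 60 normal Rectum cells. In the wounded library it was seen in 56.1% of 440 Plin2/Scd1 cells (51.4 to 60.8%) and in 0.282% of 354 Rectum cells. Median depths before thinning were 10885 and 9991 UMIs in the Rectum cells, and without thinning the shares of Plin2/Scd1 cells with Cidea were 48.9% and 91.6%. Elovl3 gave thinned shares of 11.3% and 41.1% and Far2 of 12.5% and 37.7%. Among Rectum cells Elovl3 was seen in 0 of 60 normal cells (a count of 0 leaves room for a share of 5%) and in 0.282% of wounded cells.

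**Figure D1:**
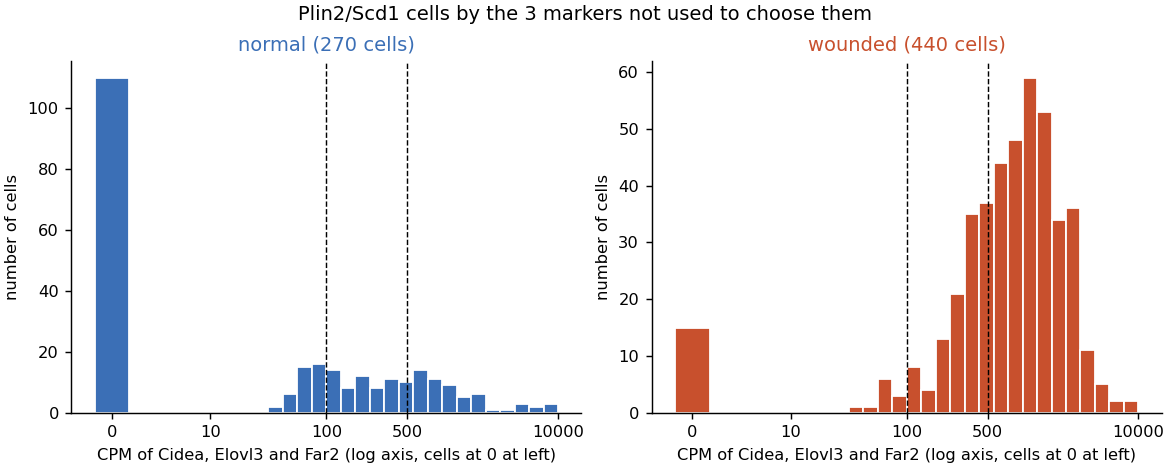
Number of Plin2/Scd1 cells (vertical axis) by the summed CPM of Cidea, Elovl3 and Far2 (horizontal log axis, cells at 0 drawn at the left), with dashed lines at 100 and 500 CPM. The 270 normal cells pile up at 0 and spread thinly upwards, while most of the 440 wounded cells lie above 500 CPM.

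Summed over all Plin2/Scd1 cells, these genes were higher than in the deposited table of the same library, by the least for Plin2 in the wounded library. Plin2 (chr4:86648386-86670060 of GRCm38, minus strand) was at 1164 CPM in normal Plin2/Scd1 cells against 83.3 in the table, and at 827 against 400 in the wounded library. Scd1 (chr19:44394455-44407879, minus strand) was at 1277 against 45.0, and at 2804 against 356 after wounding. Both were used by the rule, which fixes these directions. Of the markers it did not use, Cidea was at 206 CPM (191 to 221) against 12.6 in the normal library and at 597 (579 to 616) against 61.0 in the wounded one. Elovl3 (chr19:46131897-46135694, plus strand) was at 147 CPM against 1.49, and at 382 against 18.4. Far2 (chr6:148047259-148182758, plus strand) was at 132 CPM against 1.30, and at 324 against 19.0. The deposited tables therefore held little of these 3 genes in the normal library and more in the wounded library.

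Other cell types that the sort could have let through contributed little RNA to the sum over all Plin2/Scd1 cells. The 7 immune genes summed to 0.272 CPM in normal and 0.875 CPM in wounded Plin2/Scd1 cells, with Ptprc, Lyz2 and Tyrobp at 0 in both. The 5 melanocyte genes summed to 0.543 and 0.583 CPM, and Dct and Tyrp1 were at 0. The 8 fibroblast genes, 5 of which the rule had capped, summed to 10.3 and 7.44 CPM, with Fbln1 the leading one. The 9 hair follicle genes summed to 12.2 and 21.3 CPM, led by Lhx2, and the 6 smooth muscle genes to 13.0 and 24.6 CPM, led by Acta2 in the normal and Tagln in the wounded library. The 6 endothelial genes summed to 3.53 and 10.4 CPM and the 6 enteroendocrine genes to 1.36 and 3.79 CPM. Most wounded UMIs of the endothelial, hair follicle and smooth muscle genes came from 57 cells that clustered together, described below. These lists were at 70.1, 112 and 119 CPM there, against 0.341, 6.13 and 8.85 CPM in the other wounded cells. Normal UMIs were uneven too, and 113 normal cells formed 1 subcluster, also described below. It held hair follicle genes at 24.0 CPM, fibroblast genes at 19.7 and smooth muscle genes at 24.6. The other normal cells held them at 2.92, 2.92 and 3.89 CPM. The 13 rectum genes summed to 94.2 and 74.8 CPM, led by Lgals4, against 1071 and 1320 CPM in the tables.

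Of the 8 adipocyte genes, Adipoq, Lep and Car3 were at 0 in both libraries, while Retn, which encodes resistin, and Lpl, the lipase that frees fatty acids from lipoproteins, accounted for most of a sum of 194 and 217 CPM. Retn was at 65.4 CPM in normal Plin2/Scd1 cells against 0.299 in the table, and at 119 against 7.38 in the wounded library.

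The authors' tables were not free of cells that met the same UMI threshold. Of the normal library's table, 58 of 938 filtered cells (6.18%) had at least 5 UMIs of Plin2 and Scd1, 41 of them named Basal. Of the wounded library's table, 1341 of 4147 cells (32.3%) had them, among them 733 of the 991 cells named Regeneration and 426 of the 838 named Wound_Stress. In these cells the unused markers together came to 57.5 CPM in the normal and 190 CPM in the wounded table cells with 5 or more UMIs, against 484 and 1303 CPM in all Plin2/Scd1 cells. Most of the normal UMIs came from 64 of the 270 cells. In the 149 normal cells with under 100 CPM of the 3 genes, Cidea was at 13.8, Elovl3 at 3.33 and Far2 at 2.86 CPM, low values that the cut itself sets, so they are not compared with the table cells.

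Regeneration cells show the contrast gene by gene. They held Plin2 at 976 CPM, above the 827 CPM of wounded Plin2/Scd1 cells, but Scd1 at 861 CPM, below 2804. Cidea was at 117 CPM in Regeneration cells against 597 in Plin2/Scd1 cells, Elovl3 at 36.1 against 382, and Far2 at 41.9 against 324. Krt5, a basal keratin, was at 795 CPM in Regeneration cells against 213, a pooled value to which 57 cells at 1423 CPM gave most UMIs, while the other wounded Plin2/Scd1 cells were at 10.6 CPM. The fatty acid binding protein gene Fabp5 was at 3637 CPM against 14368 in Plin2/Scd1 cells.

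**Figure D2:**
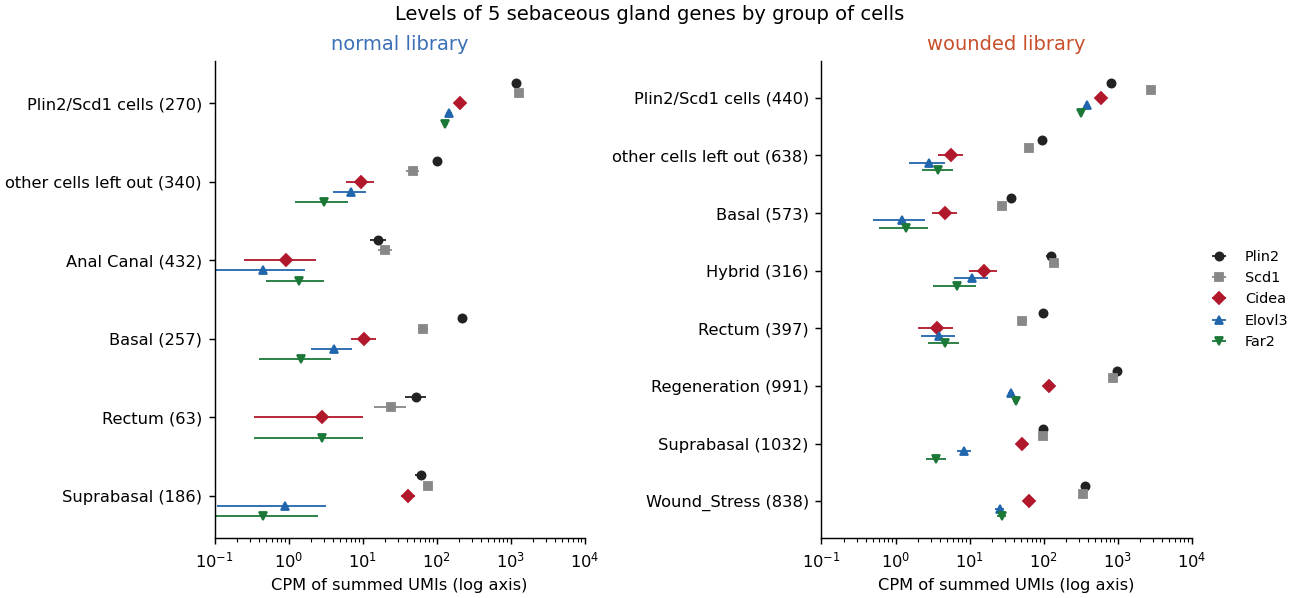
CPM of summed UMIs (log axis, bars 95% counting intervals) of Plin2, Scd1, Cidea, Elovl3 and Far2 in Plin2/Scd1 cells, the other cells left out and each named group of the deposited tables, with cell numbers in brackets. Plin2 is lower in wounded Plin2/Scd1 cells (827 CPM) than in Regeneration cells (976 CPM), while Elovl3 (382 against 36.1) and Far2 (324 against 41.9) are higher.

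Set against the deposited table of the same library, lipid synthesis genes were higher and stratified epithelial genes lower in Plin2/Scd1 cells. Among 8434 genes with at least 100 UMIs in the normal library, 623 (7.39%) were more than 2-fold above the table and 1123 (13.3%) more than 2-fold below. Among 11588 genes in the wounded library, 537 (4.63%) were above and 2683 (23.2%) below. The median gene lay at a log2 ratio of -0.00 in the normal and -0.20 in the wounded library. Since the same cells were chosen for Plin2 and Scd1, these counts describe the cells and were not tested.

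The lipid lists shared the direction in both libraries. Of 8 other sebocyte markers with enough UMIs in the normal library 7 were more than 2-fold above the table, with a median log2 ratio of 3.40, and in the wounded library 8 of 9 were, with a median of 2.82. Soat1, which esterifies cholesterol, was at 91.2 CPM against 4.98 in the normal table and at 513 against 34.8 in the wounded one. Mgst1, a microsomal glutathione transferase abundant in sebocytes, was at 1861 against 230 and at 3289 against 464. Awat1, an acyltransferase that makes wax esters, was at 48.3 CPM against 0.797 and at 31.1 against 1.78. A single cell held 101 of its 178 normal UMIs, and a single cell held 117 of its 213 wounded UMIs. Fabp5 (chr3:10012548-10016607, plus strand) was an exception in the normal library, where it was at 2647 CPM against 2440 in the table, while in the wounded library it was at 14368 against 3750.

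Fatty acid synthesis and elongation genes were more than 2-fold above the table for 12 of 20 genes in the normal library (median log2 ratio 1.51) and for 14 of 23 in the wounded one (1.23), and below it for 2 and 5. The list holds Scd1, which the rule used, so its place among the genes above was fixed. Fasn, the fatty acid synthase, was at 116 CPM against 24.0 and at 421 against 57.2. Scd3, another desaturase, was at 160 CPM against 1.20 and at 162 against 11.2. Wax and glycerolipid synthesis genes were above for 7 of 11 (1.85) and 8 of 12 (2.01), among them Dgat2, a triglyceride synthase, at 139 against 38.5 and 131 against 39.7. Lipid droplet genes, which include Plin2, used by the rule, and Cidea, were above for 6 of 9 (1.83) and 7 of 10 (1.10). Mgll, which cleaves monoglycerides, was at 407 CPM against 22.1 and at 1364 against 161. Peroxisome genes were above for 15 of 17 (1.58) and 13 of 18 (1.33), and Crat, which transfers acyl groups to carnitine, had log2 ratios of 2.61 (2.15 to 3.09) and 3.47 (3.30 to 3.64).

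Cholesterol synthesis and uptake genes were more than 2-fold above the table for 17 of 22 genes in the normal library, with none below and a median log2 ratio of 1.97, and for 17 of 23 in the wounded library, again with none below and a median of 1.79. Their summed level was 5268 CPM against 1122 in the normal table and 8851 against 2142 in the wounded one. Hmgcs1, at the head of the pathway, was at 908 CPM against 153 and at 1198 against 389. Insig1, which retains the regulator of the pathway in the endoplasmic reticulum, had a log2 ratio of 2.82 (2.63 to 3.01) in the normal and 0.34 (0.20 to 0.48) in the wounded library.

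Promoters of the cholesterol genes are shown as an example of genes that lay above the table in both libraries, which also holds for other lipid lists. RefSeq sequence of GRCm38.p6, from 250 bases before to 50 after the start, was at hand for 16 of the 23 genes. The letters CCAAT, on either strand, were in 15 of the 16 (93.8%) and in 41.1% of the promoters of all 27025 symbols, and the longer CCAATC, every match of which also holds CCAAT, in 13 of the 16 (81.2%) and 18.2% of all. CCAAT is the motif that the factor NF-Y binds, a known partner of the sterol-responsive SREBP factors. CACCCCAC, part of a known SREBP site, was in 2 of the 16 (12.5%) and in 3.30% of all promoters. Promoters of 3 other lists were searched too. CCAAT was in 12 of 20 fatty acid promoters (60%), in 6 of 12 immediate-early promoters (50%) and in 1 of 2 of the given sebocyte markers, and CACCCCAC was in 3 of the 20 fatty acid promoters (15%), 1 of the 12 and 0 of the 2. These were among 12 motifs searched, the others being the longer TCACCCCAC and CACCCCACC, the GC-rich GGGGTGGG, the TATA box TATAAA, the receptor letters AAAGGTCA, TCAAAGGTCA and AGGTCANAGGTCA, and, for factors of the immediate-early response, TGACGTCA and TGAGTCA. Below are the 150 bases before the start used in the RefSeq sequence for 3 of these genes, with CCAAT or its reverse complement ATTGG in capitals. The intervals are chr13:119690201-119690350 (plus strand), chr13:8885456-8885605 (plus strand) and chr5:4104698-4104847 (minus strand).
Hmgcs1: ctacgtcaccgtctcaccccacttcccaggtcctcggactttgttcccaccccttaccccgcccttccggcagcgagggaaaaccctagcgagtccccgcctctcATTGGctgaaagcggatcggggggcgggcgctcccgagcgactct
Idi1: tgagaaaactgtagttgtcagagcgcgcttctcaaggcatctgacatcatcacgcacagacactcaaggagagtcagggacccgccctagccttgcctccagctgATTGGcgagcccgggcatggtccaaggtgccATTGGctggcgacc
Cyp51: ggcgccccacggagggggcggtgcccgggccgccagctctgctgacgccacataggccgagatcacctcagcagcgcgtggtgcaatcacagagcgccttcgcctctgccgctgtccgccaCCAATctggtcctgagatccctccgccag
The capitals lie 45 bases before that start in Hmgcs1, 45 and 14 bases before it in Idi1, and 29 bases before it in Cyp51. GENCODE starts Idi1 at chr13:8885501 and Cyp51, on the minus strand, at chr5:4104746, both within the printed intervals. Counted from these GENCODE starts, the capitals of Idi1 and Cyp51 lie inside the genes. Idi1, which isomerises the isoprenoid unit, was at 578 CPM against 68.1 in the normal table and at 1158 against 166 in the wounded one. Cyp51, the lanosterol demethylase, was at 114 CPM against 30.6 and at 288 against 85.5. A match to letters is a description of these windows, and binding was not measured.

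Regulators of lipid and hormone response were mixed. In the normal library 7 of 16 were more than 2-fold above the table and 2 below (median log2 ratio 0.80), and in the wounded library 5 of 20 were above and 6 below (0.02). Pparg, the nuclear receptor that drives sebocyte differentiation, was at 111 CPM against 8.07 in the normal library and at 75.4 against 44.1 in the wounded one. Retinoid, steroid and detoxification genes split, with 6 of 16 above and 7 below in the normal library (-0.26) and 4 of 18 above and 9 below in the wounded one (-0.98). Lysosome and autophagy genes stayed near the table (-0.07 and -0.41), with 2 of 15 above and 3 below in the normal and 1 of 15 above and 4 below in the wounded library.

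Genes of the stratified epithelium were lower. Basal layer genes were more than 2-fold below the table for 7 of 12 in the normal library (median log2 ratio -1.27) and 10 of 12 in the wounded one (-2.24), with none above. Krt5 was at 601 CPM against 2451 and at 213 against 997, where the wounded 213 joins 57 cells of 1 subcluster at 1423 CPM and the rest at 10.6 CPM. Krt14, its partner keratin, was at 4138 against 8194 and at 2504 against 4369. Duct and upper follicle genes were below for 7 of 7 (-2.07) and 6 of 7 (-3.35). Krt79, a keratin of the gland duct, was the wounded exception, at 1149 CPM against 1125, and in the normal library it was at 654 against 1538. Its share of cells with a UMI was above that of the table in both libraries. At 2000 UMIs a cell it was seen in 53.6% of normal Plin2/Scd1 cells against 26.2% of table cells and in 78.2% against 32.5% in the wounded library. Cornified layer genes were below for 7 of 9 (-6.31) and 8 of 9 (-4.17), and cell cycle genes for 7 of 12 (-2.47) and 9 of 12 (-3.37). The proliferation marker Mki67 was at 11.7 CPM against 60.0 and at 13.4 against 131.

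Antigen presentation genes were below the table for 7 of 8 in the normal (-2.01) and 6 of 8 in the wounded library (-1.79). Wound and inflammation genes were below for 9 of 14 (-2.72) and 11 of 16 (-2.88), with 5 and 2 above. Lcn2, an iron-binding defence protein, was at 1040 CPM against 352 in the normal library and at 663 against 898 in the wounded one. Rectum genes were below for 11 of 11 (-3.83) and 12 of 12 (-4.38).

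Immediate-early genes, which cells switch on within minutes of a stimulus, took opposite directions in the libraries. In the normal library 13 of 14 were more than 2-fold above the table (median log2 ratio 1.71) and Dusp1 was below, while in the wounded library 14 of 14 were more than 2-fold below (-2.18). The normal median was 0.52 in the 64 cells with 500 CPM or more of Cidea, Elovl3 and Far2 and 1.92 in the others. The list summed to 21397 CPM in 113 cells of 1 subcluster, described below, and to 5842 CPM in the other normal Plin2/Scd1 cells. Its sum was 4182 CPM in the normal table. Fos (chr12:85473890-85477273, plus strand) was at 2802 CPM (2749 to 2857) in normal Plin2/Scd1 cells against 860 in the table, and at 326 CPM (313 to 340) in wounded ones against 1051. Jun was at 2128 against 553 and at 371 against 1436. Heat shock and ER stress genes were nearer to the table, with a median of 0.60 (2 of 9 above, 1 below) in the normal and -0.56 (0 of 10 above, 1 below) in the wounded library.

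**Figure D3:**
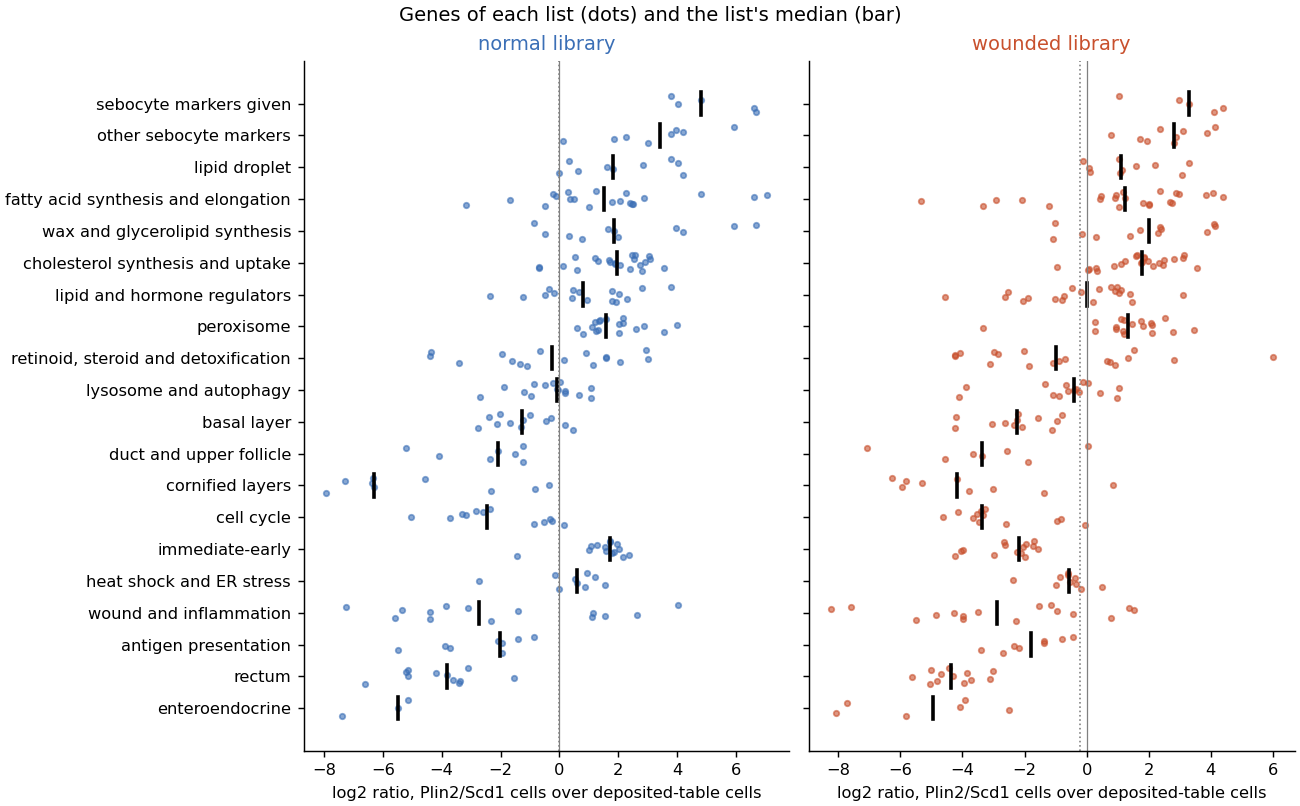
Log2 ratio of Plin2/Scd1 cells over the cells of the deposited table (horizontal axis) for each gene (dot) with at least 100 UMIs, by list, with the median as a black bar and the median of all genes as a dotted line. Sebocyte and lipid lists lie to the right of 0 and epithelial lists to the left in both libraries, and immediate-early genes change sides, from a median of 1.71 in the normal (0.52 in its 64 cells with 500 CPM or more of Cidea, Elovl3 and Far2) to -2.18 in the wounded library.

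In the normal library the 10 genes with the highest ratios over the table were Retn, with a log2 ratio of 7.77, Scd3, Serpina3j, Far2, Elovl3, Fa2h, Awat1, Clstn3, Cers4 and Acot5 at 5.10. Fa2h hydroxylates fatty acids, at 143 CPM against 1.69, and Cers4 joins them to sphingoid bases to make ceramides, at 401 against 11.4. In the wounded library they were Hsd3b6, with a log2 ratio of 5.98, Gm13178, Serpina3j, Fa2h, Gm436, Panx3, Acoxl, Elovl3, Awat1 and Far2 at 4.09. Hsd3b6, a steroid dehydrogenase, was at 14.6 CPM against 0.231. Serpina3j, Far2, Elovl3, Fa2h and Awat1 were among the 10 in each library.

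The 10 genes with the lowest ratios in the normal library were Klk13, Sprr1b, Cldn4, Chit1, Stfa3, Pyy, BC100530, Krt4, Ano1 and Krt6b. Krt4, a keratin of moist squamous epithelium, was at 2.44 CPM against 379, and Stfa3 at 4.62 against 792. In the wounded library they included Psca, Ppbp, Sprr2d, Igha, Igkc, Sprr1a, Pyy, Teddm3 and Clps. Sprr1a, a precursor of the cornified envelope, was at 1.90 CPM against 571, and Pyy, a gut hormone, at 2.04 against 553. Igkc had no UMI in wounded Plin2/Scd1 cells and was at 135 CPM in the table.

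The reporter was scarcely detected. ZsGreen1, a feature of the normal library only, had 19 UMIs in the 270 cells, or 5.16 CPM (3.11 to 8.06), against 4.28 CPM in the table, and it was seen in 0 of 63 Rectum cells, where a count of 0 leaves room for 4.76%.

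Plin2/Scd1 cells varied along the markers that the rule did not use. By the summed CPM of Cidea, Elovl3 and Far2, 149 normal cells (55.2%) lay under 100 CPM, 57 (21.1%) between 100 and 500, and 64 (23.7%) at 500 or more. Of the wounded cells 26 (5.91%), 97 (22.0%) and 317 (72.0%) lay in these ranges. The ranges are cuts of a continuum and no cell types, and 34 normal and 110 wounded cells lay within 1.5 times of the upper limit. Median depth differed little between the normal ranges, from 11968.5 to 13796 UMIs, and was 13730 to 15939 in the wounded ones.

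Across these ranges Krt5 was highest and several sebocyte and lipid genes were lowest in the lowest range, though not all sebocyte genes had that order. In the normal library Krt5 was at 936 CPM in the lowest range, 288 in the middle one and 41.6 in the highest. Fabp5 was at 1051, 2015 and 7185 CPM, and Mgst1 at 1050, 1606 and 4112. Krt79 was at 364, 535 and 1482 CPM, and the cholesterol list summed to 3468, 4234 and 10671 CPM. In the wounded library Krt5 was at 2997, 62.2 and 41.4 CPM, and Fabp5 at 6392, 7891 and 16684. The first Krt5 value came from 26 cells. Of all 1463 wounded Krt5 UMIs, 1401 lay in the 57 cells of 1 subcluster, described below. The wounded cholesterol list summed to 2376, 4574 and 10472 CPM, below the normal sum in the lowest range and within 10% of it in the other two. Pparg had the reverse order in the normal library, at 130, 109 and 66.6 CPM, while in wounded cells it was at 53.9, 71.1 and 78.2. Plin2, which the rule used, was nearly flat over the normal ranges at 1184, 1134 and 1139 CPM, whereas Scd1 was at 496, 913 and 3549. Awat1 and Retn were nearly confined to the highest normal range, at 208 and 282 CPM there against 0.476 and 1.43 CPM in the lowest, and they came from 10 and 15 of the 270 cells.

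Across single cells thinned to 2000 UMIs, the UMIs of Cidea, Elovl3 and Far2 had a Spearman correlation of 0.42 with the cholesterol list over 265 normal cells and 0.54 over 440 wounded cells. With Fabp5 it was 0.44 and 0.43, with Krt79 0.41 and 0.44, and with Plin2 0.06 and 0.21. With Krt5 it was -0.43 in normal but -0.06 in wounded cells. Cells of 1 library share its depth and free RNA, so these values are descriptions.

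The normal cells of the lowest range were low in Cidea, Elovl3 and Far2 by the cut, so these genes say nothing on what the cells were. Other genes can be set beside deposited Basal cells of the same library. Pparg was at 130 CPM (115 to 146) against 16.3, Mgst1 at 1050 against 357, Hmgcs1 at 803 against 241 and the alcohol dehydrogenase gene Adh1 at 804 against 173. Cck, a peptide hormone gene, was at 485 CPM against 217 and the alarmin gene Il33 at 193 against 15.5. Krt5 was at 936 CPM against 2123, Krt15 at 553 against 2878, and Krt14 at 5174 against 5400. Fos was at 3607 CPM against 2154. These comparisons were not tested, since the cells were chosen by their UMIs.

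Immediate-early genes tracked the same axis in the normal library. Fos was at 3607 CPM in the lowest range, 2193 in the middle and 1330 in the highest, and the median cell held 3387, 964 and 133 CPM. In the wounded library Fos was at 503, 277 and 326 CPM, with a median cell of 175, 0 and 0. The list of 14 summed to 16840, 9594 and 5169 CPM in normal and to 3862, 1384 and 1461 CPM in wounded cells. Normal cells were thus higher than wounded cells in each of the 3 ranges.

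**Figure D4:**
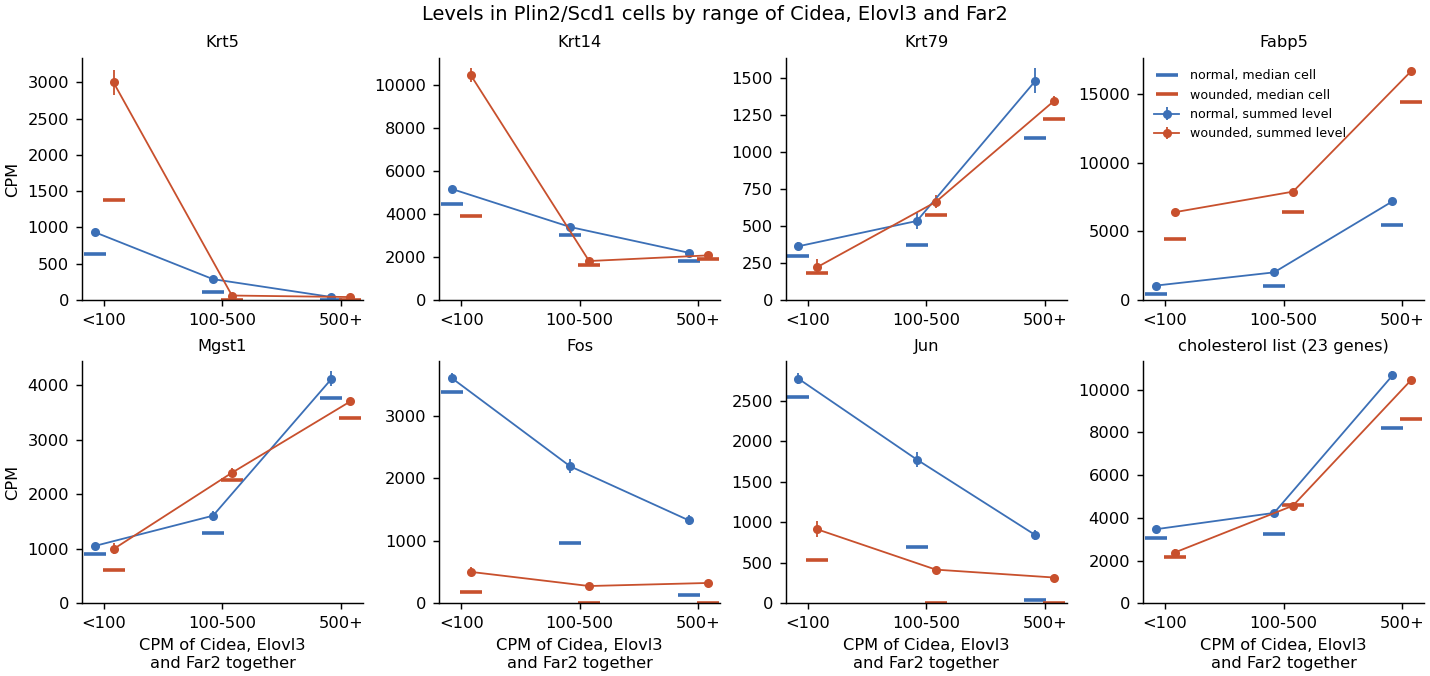
CPM (vertical axes from 0, bars 95% counting intervals) of 7 genes and of the 23 cholesterol genes in Plin2/Scd1 cells, by 3 ranges of the summed CPM of Cidea, Elovl3 and Far2, with dashes for the median cell. Krt5 declines from 936 to 41.6 CPM and Fabp5 climbs from 1051 to 7185 CPM over the normal ranges, the cholesterol sums of the libraries nearly coincide above 100 CPM, and Fos and Jun are higher in normal cells throughout.

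Clustering of each library's cells on their own (leiden, resolution 0.5) gave groups that are left unnamed. The 270 normal cells fell into 3 subclusters. In number 1 (113 cells) the leading genes were Egr4, Cxcl1, Cxcl10, Icam1 and Cald1. Its immediate-early list summed to 21397 CPM, against 5842 in the other normal cells. Krt17 was at 1481 CPM there against 115, Krt5 at 1031 against 261 and Elovl3 at 5.53 against 259. In number 2 (93 cells) the leading genes were Serpina3j, Fa2h, Retn, Awat1 and Elovl4, and in number 3 (64 cells) Car2, Mad2l1, Them5, Alpl and Akr1c18. The 440 wounded cells fell into 7 subclusters of 102, 96, 30, 33, 57, 81 and 41 cells. Number 3 was led by Zfp36, Dnajb1, Egr1, Fos and Ier2, with 7166 CPM of immediate-early genes, and number 7 by Awat1, Bglap3, Ly6g6c, Elovl4 and Retn, with 18279 CPM of cholesterol genes. Number 4 was led by Il33, Cck, Akr1c18, Tspo and Itm2c. Numbers 1, 2 and 6 had leading genes whose log2 ratio over the other cells was at most 2.01. Which cells fell together depended on the settings, with an adjusted Rand index (1 for the same grouping) of 0.74 in normal and 0.47 in wounded cells when the genes of the lists were left out of the variable features.

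Wounded subcluster number 5, of 57 cells, stood apart. Krt16, Krt6a, Cxcl14, Cald1 and Krt17 led it, keratins of activated epidermis among them, and Krt5 was at 1423 CPM there. Cidea was at 262 CPM in it. The smooth muscle and myoepithelium list came to 119 CPM in these 57 cells against 8.85 in the other wounded cells, the hair follicle list to 112 against 6.13 and the endothelial list to 70.1 against 0.341, and their part in its profile was not tested.

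Between libraries, Cidea, Elovl3 and Far2 were higher and immediate-early genes lower in wounded Plin2/Scd1 cells. Of 6992 features with at least 100 UMIs over both libraries, 544 (7.78%) were more than 2-fold higher and 838 (12%) more than 2-fold lower in wounded cells, and the median feature had a log2 ratio of -0.09. All values that follow compare 1 library with 1 library.

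The features at the head of that order also differed in cells that were not Plin2/Scd1 cells. The 10 highest were Atp6v0c, Fdx2, Rnasek, Nme2, Mrpl53, Mc5r, Rps12, Cyb561a3, Nudt8 and Adnp. Fdx2 had a log2 ratio of 8.02 in Plin2/Scd1 cells and 8.19 between the deposited tables, Rps12 had 5.82 and 5.82, and Mc5r, a melanocortin receptor gene of sebaceous glands, 5.90 and 6.84. Of the 10 lowest, Gm10260 had -6.89 and -7.06, Gm11361 -6.44 and -6.35, and Gm8797 -5.61 and -4.06. The labels name Cell Ranger 3.1.0 for both libraries while the header of the wounded matrix names 4.0.0, and the matrices list 31054 and 32285 features. The part of the software and its annotation in such differences was not tested.

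The other 7 of the 10 lowest lay nearer to 0 between the tables than in Plin2/Scd1 cells, as Gm8797 did. Ccn1, a matricellular gene quickly induced by growth factors, was at 524 CPM in normal and 5.72 CPM in wounded cells, a log2 ratio of -6.52, against -0.15 between the tables. Egr4 had -6.40 against 0.83, Adm, a vasodilator peptide gene, -5.65 against -0.78, and Depp1 -5.86 against 1.26. Saa3, an acute-phase gene, was at 47.1 CPM in normal cells and had no UMI in wounded ones, against a ratio of 0.19 between the tables. Ptp4a1 at -6.67 and Dlk2 at -5.63 were also lower between the tables, at -4.38 and -1.31. For Ptp4a1 the difference between the tables was thus larger than for Gm8797. GENCODE lists Ptp4a1 under a further, overlapping gene ID, whose UMIs are not in these values.

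Immediate-early genes were lower for 14 of 14, with a median log2 ratio of -3.10, while the same genes had a median of 0.80 between the deposited tables. Fos had -3.10 (-3.16 to -3.03) against 0.29, Atf3 -4.28 against 1.34, and Nr4a1 -4.81 against 0.55. In the cells with 500 CPM or more of Cidea, Elovl3 and Far2 the median was -1.79, with Fos at 1332 CPM in normal and 327 CPM in wounded cells. Heat shock and ER stress genes had a median of -0.95 in all Plin2/Scd1 cells and -0.67 in that range, against 0.51 between the tables.

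Of the 5 given sebocyte markers 4 were more than 2-fold higher in wounded cells, with a median of 1.31, and Plin2 was not, at -0.49. Plin2 and Scd1, at 1.14, were the genes that chose the cells in each library. Of the markers not so used, Cidea had 1.54 (1.43 to 1.66), Elovl3 1.38 (1.25 to 1.52) and Far2 1.31 (1.16 to 1.45). Within the highest range the median was -0.30, with -0.06 for Scd1, 0.05 for Cidea, -0.30 for Elovl3 and -0.34 for Far2, and in the cells under 500 CPM it was 1.33. The ranges were cut on Cidea, Elovl3 and Far2, 3 of these 5 genes, so the values within them say nothing on whether the difference holds. The tables too had a median of 2.99 for these 5 genes. Cholesterol genes were higher for 11 of 23 and lower for 2, with a median of 0.95, against 0.66 between the tables, and their median was 0.15 in the highest range and 0.36 in the cells under 500 CPM. Insig1 was one of the lower ones at -1.51, and it was at 0.97 between the tables.

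Fabp5 and Soat1 remained higher within the highest range. Fabp5 was at 2651 CPM in normal and 14447 in wounded cells on the shared features, a log2 ratio of 2.45 (2.42 to 2.48), and at 7197 and 16771 CPM, a ratio of 1.22 (1.18 to 1.26), among cells at 500 CPM or more. Soat1 had 2.50 in all cells and 1.06 (0.88 to 1.25) there, although the tables also differed, by 2.81. Fasn had 1.86 and 0.56. Between the tables Fabp5 and Fasn were higher in the wounded library as well. Basal layer genes had a median of -1.49 in all cells, with 7 of 9 lower, -0.11 in the highest range and -0.66 in the cells under 500 CPM. Between the tables the median of this list was -0.47.

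The medians of the remaining lists are given in all cells, in the highest range and in the cells under 500 CPM, over the genes with enough UMIs in each. Other sebocyte markers had 0.83, 0.24 and 1.86, against 1.20 between the tables, and wax and glycerolipid genes 0.06, -0.34 and 2.06, against 1.14. Fatty acid genes had 0.84, -0.16 and 0.89, against 0.79, and lipid droplet genes 0.80, 0.02 and 0.46, against 0.37. Between the tables these 4 lists were thus higher in the wounded library as well. The ranges were cut on genes of the lipid lists, and the cells under 500 CPM were not alike. There 149 normal cells lay under 100 CPM and 57 above it, against 26 and 97 wounded cells. A higher wounded level of the genes used for the cut is thus in part built in, and its extent in other genes was not tested. Peroxisome genes had 0.15, -0.26 and 0.03, against 0.58, and retinoid, steroid and detoxification genes 0.13, 0.03 and -0.09, against -0.57. Lipid and hormone regulators had -0.47, -0.36 and -0.35, against 0.31, lysosome and autophagy genes -0.41, -0.34 and -0.36, against -0.28, and antigen presentation genes -0.80, -1.06 and -0.58, where the tables had -1.31. Duct and upper follicle genes had -1.59, -0.15 and -1.12, against -0.43 between the tables. Cell cycle genes had -1.11, -0.07 and -1.02, against -0.68, from 7, 2 and 4 genes. Cornified layer and rectum genes gave no stable direction, each with 3 genes of enough UMIs. The cornified median was -1.02, against -1.01, but the list summed to 341 CPM in normal and 600 CPM in wounded cells, led by Sbsn at 1.33, and the median turned to 0.15, 1.40 and 1.33 with a minimum of 300 UMIs, with thinning to 2000 UMIs and among features within 2-fold between the tables. The rectum median was -1.08, against 0.24, and turned to 0.06 with the minimum of 300 UMIs. Wound and inflammation genes had -1.35, -0.11 (2 genes) and -0.77, against -0.36 between the tables. In all cells 1 of 8 was higher and 4 were lower. Il33 was among the lower ones at -2.05, against 3.14 between the tables, and Aldh3a1, an aldehyde dehydrogenase gene, was at -4.33.

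**Figure D5:**
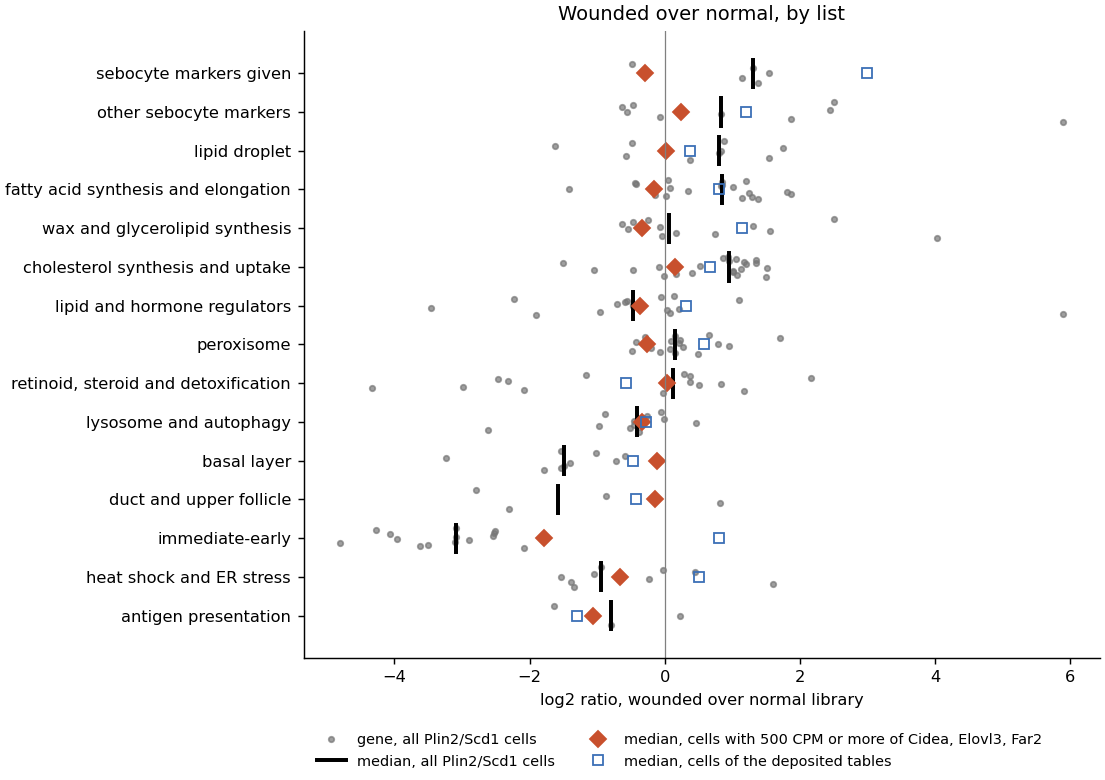
Log2 ratio of the wounded over the normal library (horizontal axis) for each gene (grey dot) and the median (black bar) of each list in Plin2/Scd1 cells, with the median in cells at 500 CPM or more of Cidea, Elovl3 and Far2 (diamond) and between the deposited tables (open square). Immediate-early genes lie at -3.10, with the diamond at -1.79 and the square at 0.80, while the given sebocyte markers lie at 1.31 with the diamond at -0.30.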

How the data were processed

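Per the labels, the authors aligned 10x Genomics reads to mm10 with Cell Ranger 3.1.0 (the header of the wounded matrix names 4.0.0) and processed cells with Seurat 3.2.2. The authors deposited raw UMI counts per feature and barcode, and tables of the cells they kept, with clusters of anal gland, hair follicle and fibroblast cells removed. Per the paper, normal cells were filtered further on Lgr5, Lhx2 and Tbx1, to take hair follicle cells out of the basal cluster. The tables, and the cells left out of them, were thus not made alike in the libraries. The deposited table values are natural logs of a whole number increased by 1, as held for each of 12945993 and 69296370 values tested. Cell names came from the table headers. Here the counts were summed over Plin2/Scd1 cells and over table cells that passed the filter (938 of 939 and 4147 of 4147) and divided by their total (CPM). Log2 ratios were formed for features with at least 100 UMIs in both groups together, leaving out mitochondrial genes, with exact binomial intervals, and past 2-fold was the call. A group at 0 was given 3 UMIs as a bound. Shares have Clopper-Pearson and levels exact Poisson intervals. The ratio step was tested on simulated data. Libraries were joined by 30406 shared gene IDs. Clustering used 2000 variable features, 10 principal components and 15 neighbours (scanpy 1.11.5, igraph 0.11.9), with numpy 2.4.6, scipy 1.17.1 and pandas 2.3.3. Gene positions are GENCODE M21, while promoter windows use the start of the RefSeq sequence. Genes named were list members, the 10 highest and 10 lowest ratios, the 5 leading genes of a subcluster, and ZsGreen1. Members and lists were chosen with earlier results of these data known. Alternatives covered the depth minimum, thinning, scaling, the thresholds and the clustering resolution. Columns of the deposited tables other than cell names and values were not used.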

Additional observations from a re-analysis of the deposited data

Results flagged for a closer look

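Immediate-early genes lay on opposite sides of the deposited table in the 2 libraries, with a median log2 ratio of 1.71 in normal and -2.18 in wounded Plin2/Scd1 cells. Heat shock and ER stress genes did so too, by less, with medians of 0.60 and -0.56. The normal immediate-early median joins unlike cells. That list summed to 21397 CPM in the 113 cells of subcluster 1 and to 5842 CPM in the other normal Plin2/Scd1 cells. The normal table was at 4182 CPM. The median of all genes was -0.00 and -0.20, and in the wounded library 1 of the 10 heat shock and ER stress genes was more than 2-fold below the table, against 23.2% of all genes. Each median lay further from 0 than the counting error of its genes, but that error leaves out the spread between mice. It therefore does not decide whether a list departed from all genes. The difference between the libraries was not tested, since each condition was 1 library.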

How the results depend on the processing

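No paired analysis was possible because each condition was 1 library, and for the same reason no replicate could be left out. Among alternatives to values that answer a comparison, 101 stayed close to the value reported and 33 moved. For the other values, which include most list medians and single genes, 722 stayed close, 431 moved and 9 were reversed. Under 10% mitochondrial UMIs left 250 wounded Plin2/Scd1 cells. Against all other filtered cells the normal immediate-early median was 1.35. With a minimum of 300 UMIs, 380 normal features were above and 502 below the table, 1702 wounded features were below, 251 were higher and 403 lower in wounded than in normal cells, and the wounded over normal medians of cornified layer and rectum genes turned to 0.153 and 0.0572. Thinned to 2000 UMIs, 136 features were higher and 197 lower, and the cornified median was 1.40. The wounded over normal immediate-early median was -3.24 on the mean of per-cell CPM. Resolution 1.0 gave 9 normal and 8 wounded subclusters (adjusted Rand index with the grouping reported 0.40 and 0.62), and resolution 0.3 gave 3 (1) and 4 (0.56). Without the genes of the lists there were 3 (0.74) and 6 (0.47), so the subclusters of both libraries depend on the settings. The share of cells with Cidea was 24.9% and 75.3% at 4000 UMIs, and 48.9% and 91.6% without thinning. The alternatives that follow were chosen after seeing the data. In cells with 500 CPM or more of Cidea, Elovl3 and Far2, 1697 normal features were below the table, the cholesterol medians were 2.76 in normal and 2.06 in wounded cells, and the normal immediate-early median was 0.52. Wounded over normal, these cells gave 335 features higher and 310 lower, an immediate-early median of -1.79, a cholesterol median of 0.15 and a turned median of the given sebocyte markers, -0.30, with Scd1 at -0.0634, Elovl3 at -0.30 and Far2 at -0.34. Since the cells were cut on Cidea, Elovl3 and Far2, the smaller differences of these 3 markers are built in. The smaller differences of Scd1 and of the other lists are not fixed by the cut, and their cause was not tested. In cells under 500 CPM the cholesterol medians were 1.42 and 0.83, the immediate-early medians 1.92 and -1.96, and wounded Retn turned to -0.10. Wounded over normal, they gave 296 features higher, a cholesterol median of 0.36 and an immediate-early median of -2.92. Among features within 2-fold between the tables, 259 were higher, the immediate-early median was -3.51 and the cornified median 1.33. The cause of these changes was not tested beyond what each alternative removes. Low counts limit genes such as Awat1 in both libraries and Retn in the normal library, which were seen in few cells there. In the wounded library Retn was seen in 109 of 440 cells.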

Other observations

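A further set of wounded barcodes met the thresholds on Plin2, Scd1 and the fibroblast genes but had 25% or more of their UMIs from mitochondrial genes. There were 243 of them in the wounded and 8 in the normal library, with a median of 5504 UMIs and 36.4% mitochondrial UMIs in the wounded ones. Per 1000000 of their other UMIs, Cidea was at 264, Elovl3 at 291 and Far2 at 224, against 663, 424 and 360 in wounded Plin2/Scd1 cells. Fos was at 854 against 362. A further 38 wounded and 2 normal barcodes had 5000 or more detected genes, and 14 and 2 had 5 or more UMIs of the fibroblast genes.

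Of the other cells left out of the tables, 116 of 340 normal and 210 of 638 wounded cells had 2 or more UMIs of the hair follicle genes Lhx2, Lgr5 and Tbx1, against 6 and 14 Plin2/Scd1 cells. Summed over all 340 normal and all 638 wounded other cells left out, Krt5 was at 2857 and 2416 CPM.

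Of the 6992 features compared between libraries, 6036 differed by no more than 2-fold between the deposited tables, and 259 of these were higher and 593 lower in wounded than in normal Plin2/Scd1 cells.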
